A study of Mus musculus with 10 samples.

Results

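Genes of fatty acid uptake and lipid droplets were examined in skeletal muscle with induced expression of Foxp1, a forkhead transcription factor gene. The set held 6 genes, namely Cd36, Fabp3, Plin2, Plin3, Dgat1 and Abhd5, taken by name from the 3480 genes of the table analysed, and all 6 passed the filter on low counts that left 3115 genes for testing. RNA was sequenced from the tibialis anterior, the fast-twitch muscle along the shin, of 5 FoxP1iSkmTg and 5 Control mice. FoxP1iSkmTg mice had the genotype FoxP1flSTOP x HSA-MerCreMer, in which a Foxp1 transgene lies behind a floxed stop cassette and Cre is fused to mutated estrogen receptor domains that tamoxifen activates. The human skeletal alpha-actin promoter drives this Cre in muscle fibres. Control mice were FoxP1flSTOP mice, which carry the silent transgene and no Cre. All 10 mice were females aged 13 to 18 weeks, all were dosed with tamoxifen (80 mg/kg on each of 4 days), and their muscles were taken within days of the last dose. No mice with MerCreMer alone were included, so the effects of Foxp1 and of active Cre cannot be told apart for any gene described here.

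Muscle fibres take up long-chain fatty acids from blood with the help of the membrane protein CD36 and carry them through the cytosol bound to fatty acid binding protein, of which FABP3 is the heart and muscle form. Fatty acids that are not oxidized are esterified to triglyceride, the last step of which is catalysed by DGAT enzymes, and stored in lipid droplets coated by perilipins. Stored triglyceride is released by adipose triglyceride lipase, whose co-activator is ABHD5, also known as CGI-58.

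Foxp1 stood at 3208 ± 2199 normalized counts (SD, n = 5) in FoxP1iSkmTg muscle and at 305 ± 71.0 in Control muscle, a log2 fold change of 3.42 ± 0.44 (SE, adjusted p = 0.000613, edgeR quasi-likelihood test). Normalized counts are read counts divided by the size factor of each library. Esr1, whose sequence MerCreMer partly holds, stood at 2957 ± 1644 and 495 ± 36.2, and reads of gene and transgene were not separated. Counts over listed genes came to 6620970 to 8737660 per mouse, and every listed gene had an unadjusted p under 0.05 in the comparison of the authors, so each gene described here had been selected on the same contrast. Of 18 markers of striated muscle fibres 9 were listed, with 6 lower, 0 higher and 3 not past the threshold by edgeR. Over all tested genes 18.2% were lower and 22.2% higher. Of the 9 markers, 8 were lower and 0 higher at an unadjusted p under 0.05, and 7 were lower and 0 higher by DESeq2. Their summed level ran from 1245360 to 1457080 normalized counts in FoxP1iSkmTg and from 1702970 to 2007710 in Control mice. Of 12 adipocyte markers Plin1 and Car3 were listed, and none of 12 endothelial or 12 macrophage markers was, so these were not analysed here. Bulk RNA cannot tell fewer cells of a type from less RNA per cell, and the p-values measure the spread between these mice.

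Fabp3, Plin2 and Plin3 were higher in FoxP1iSkmTg muscle, whereas Cd36, Dgat1 and Abhd5 were below Control without passing the threshold. At an adjusted p under 0.05 (edgeR quasi-likelihood test, Benjamini-Hochberg over 15846 genes), 3 of 6 genes passed, where 40.4% of all tested genes did, or 7.95% of the 15846. The 3 that passed were higher, a direction that 22.2% of tested genes took, and 0 passed as lower, where 18.2% of tested genes did. At an unadjusted p under 0.05 all 6 passed, 3 higher and 3 lower, which the selection of the listed genes at that threshold had nearly fixed. By the DESeq2 Wald test 3 passed as higher, where 840 of 3115 tested genes did, and 1, Cd36, as lower, where 26.1% did. With the authors' size factors Cd36 passed as lower, where 19.8% did. The median log2 fold change of the 6 genes was 0.14, beside 0.16 over all tested genes. With 6 genes, and with selection on the contrast, these shares give no ground for setting the set apart from the other listed genes.

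The starts of 4 of the genes are printed first, to show the motifs and base composition that genes of this pathway carry there. RefSeq promoter windows of build GRCm38.p6, the patch release of mm10, were found for 5 of the 6 genes, all but Dgat1. Each runs from 250 bases before to 50 bases after the annotated start, 5′ to 3′ on the strand of the gene. Capitals mark the motifs searched on both strands, which were the nuclear receptor half-site AGGTCA, which reads TGACCT on the other strand, a pair of such half-sites with 1 base between them, the E-box CACGTG, the forkhead letters TGTTTAC, which read GTAAACA on the other strand, and the CCAAT box, which reads ATTGG on the other strand. No match of one motif shared bases with a match of another in these windows.
Fabp3: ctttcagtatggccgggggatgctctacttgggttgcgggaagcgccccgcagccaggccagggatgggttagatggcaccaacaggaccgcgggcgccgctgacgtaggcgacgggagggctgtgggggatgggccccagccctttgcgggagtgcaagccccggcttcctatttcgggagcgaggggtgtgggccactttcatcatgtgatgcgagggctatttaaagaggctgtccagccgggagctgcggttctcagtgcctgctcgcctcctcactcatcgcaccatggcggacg
Cd36: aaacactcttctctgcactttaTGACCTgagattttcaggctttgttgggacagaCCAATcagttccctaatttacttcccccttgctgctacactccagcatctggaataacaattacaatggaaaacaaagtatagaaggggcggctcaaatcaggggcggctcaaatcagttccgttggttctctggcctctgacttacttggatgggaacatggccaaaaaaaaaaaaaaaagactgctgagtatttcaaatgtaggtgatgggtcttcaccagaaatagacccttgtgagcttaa
Plin2: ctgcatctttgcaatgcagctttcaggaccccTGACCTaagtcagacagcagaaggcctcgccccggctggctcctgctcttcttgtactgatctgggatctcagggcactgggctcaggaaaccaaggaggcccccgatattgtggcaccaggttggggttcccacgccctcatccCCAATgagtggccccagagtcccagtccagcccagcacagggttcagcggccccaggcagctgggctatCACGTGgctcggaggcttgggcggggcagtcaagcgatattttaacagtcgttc
Plin3: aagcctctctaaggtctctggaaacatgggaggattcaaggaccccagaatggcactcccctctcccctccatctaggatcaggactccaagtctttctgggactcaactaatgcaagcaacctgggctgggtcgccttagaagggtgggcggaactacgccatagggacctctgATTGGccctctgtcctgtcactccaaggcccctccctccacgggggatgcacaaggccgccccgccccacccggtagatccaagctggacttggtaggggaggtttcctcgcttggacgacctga

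The Fabp3 window, chr4:130308488-130308787 on the forward strand, had none of these motifs and a GC content of 65%. Its RefSeq start lies inside the deposited span of the gene. The Cd36 window, chr5:17835847-17836146 on the reverse strand, was placed at a RefSeq start within the span of the gene, and the whole window lies in that span. It held TGACCT 228 bases and CCAAT 195 bases before the start and had a GC content of 43%, against a median of 52.7% over all promoters. The Plin2 window, chr4:86670010-86670309 on the reverse strand, held TGACCT 218 bases, CCAAT 73 bases and CACGTG 4 bases before the start. The Plin3 window, chr17:56290462-56290761 on the reverse strand, also lies wholly inside the span of its gene and held only ATTGG, 75 bases before the start. In the Abhd5 window, which is not printed, TGACCT lay 69 bases before the start.

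Among 32851 promoter windows of this length, 16.3% held the half-site on either strand, and 3 of the 5 windows here did. CCAAT was found in 37.4% and in 3 of 5, and CACGTG in 7.15% and in 1 of 5. The spaced pair of half-sites occurred in 0.0396% and the forkhead letters in 3.65% of all windows and in 0 of 5 here. The half-site was present at Plin2, which was higher, and at Cd36 and Abhd5, which were not. A match describes these letters in these windows and shows no binding.

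Fabp3 showed the largest change of the 6 genes. Fabp3 (ENSMUSG00000028773, chr4:130308595-130315463, forward strand, mm10) stood at 5905, 7089, 9707, 5474 and 8164 normalized counts in FoxP1iSkmTg replicates 1 to 5. Control replicates 1 to 5 stood at 3463, 3579, 2650.4, 2880.0 and 5644. The groups met at a single point, since Control replicate 5 lay above FoxP1iSkmTg replicate 4, while the other 4 FoxP1iSkmTg mice lay above every Control mouse. The means were 7268 ± 1722 and 3643 ± 1184 (SD, n = 5 each), a 2.02-fold higher level with a log2 fold change of 1.02 ± 0.21 (SE, adjusted p = 0.0107, edgeR quasi-likelihood test). Without Control replicate 5 the log2 fold change was 1.24 (adjusted p = 0.0013). It was also the most variable of the 6 genes within groups, with a coefficient of variation of 23.7% in FoxP1iSkmTg and 32.5% in Control mice.

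Fabp3 has a processed pseudogene, Fabp3-ps1, on chromosome 10 (86731987 to 86732388), which the table lists as well. Fabp3-ps1 had 27 to 53 normalized counts in FoxP1iSkmTg and 14 to 22 in Control mice and was 2.16-fold higher (adjusted p = 0.0188, edgeR quasi-likelihood test). It took 0.480% to 0.601% of the reads of both genes in FoxP1iSkmTg and 0.354% to 0.671% in Control mice, and the assignment of reads that match both copies is uncertain. The ends of Fabp3 overlap Gm10570 by 80 and Zcchc17 by 81 bases on the opposite strand, and because it is not given whether reads were counted by strand, reads in these stretches are uncertain.

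Cd36, which encodes the fatty acid translocase of the plasma membrane, lay below Control by less than the threshold required. Cd36 (ENSMUSG00000002944, chr5:17781690-17888801, reverse strand) stood at 3538, 4175, 4516, 4345 and 4006 normalized counts in FoxP1iSkmTg replicates 1 to 5. Control replicates 1 to 5 stood at 5047, 4439, 5583, 5111 and 6298. All but FoxP1iSkmTg replicate 3 lay below the lowest Control mouse, replicate 2, so the groups overlapped by one mouse each. The means were 4116 ± 375 and 5296 ± 692 (SD, n = 5 each), with a log2 fold change of -0.34 ± 0.10 (SE, adjusted p = 0.0519, edgeR quasi-likelihood test). Cd36 passed by the DESeq2 Wald test (log2 fold change -0.36, adjusted p = 0.0103) and without Control replicate 2 (-0.41, adjusted p = 0.0238). With the authors' size factors in place of TMM it also passed by edgeR (-0.36, adjusted p = 0.0361). It passed in 6 of 17 alternative analyses in all, with the log2 fold change between -0.41 and -0.27 and the adjusted p between 0.0103 and 0.120. Endothelial cells and macrophages also express Cd36, and none of the markers fixed for these cells was listed, so their part in its level was not tested.

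**Figure D1:**
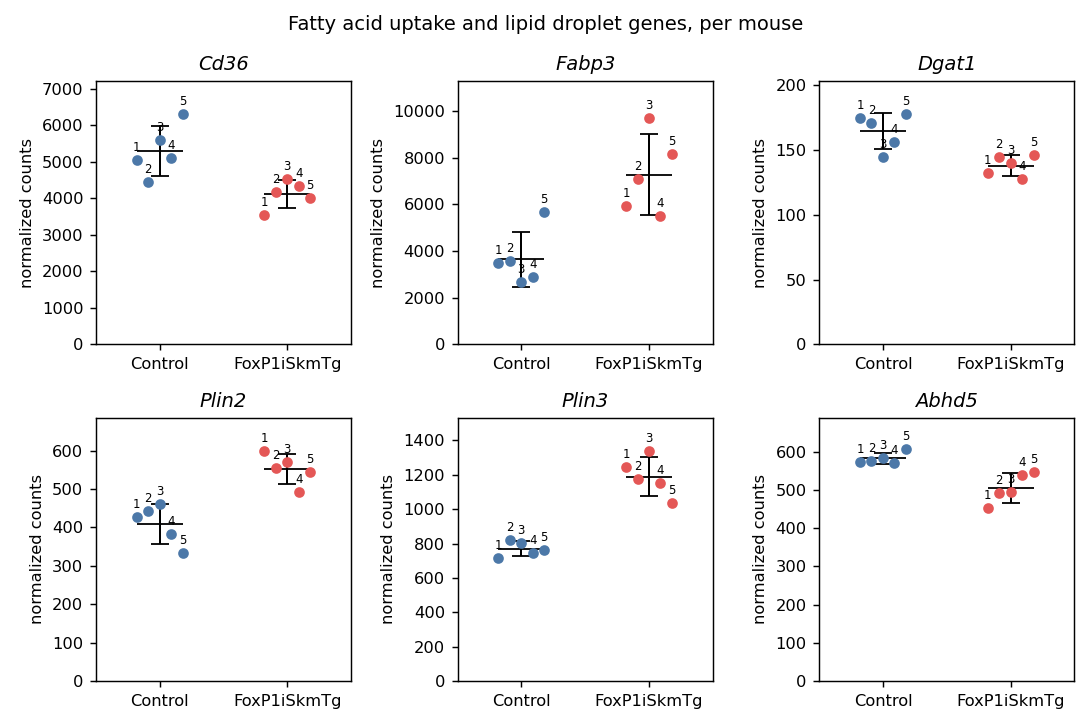
Normalized counts of the 6 genes in each mouse, on a linear axis from 0 for each gene, with points numbered by replicate, bars at the group mean and whiskers of 1 SD (n = 5 mice per group). Plin2 and Plin3 are higher in every FoxP1iSkmTg mouse, Abhd5 is lower in every one, and Fabp3, Cd36 and Dgat1 overlap, Fabp3 because Control replicate 5 lies at 5644.

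Both perilipin genes were higher in every FoxP1iSkmTg mouse than in any Control mouse. Plin2 (ENSMUSG00000028494, chr4:86648386-86670060, reverse strand) encodes perilipin 2, the coat protein found on droplets of most cells and degraded when not bound to a droplet. It stood at 599, 554, 569.7, 493 and 544 normalized counts in FoxP1iSkmTg replicates 1 to 5 and at 427, 444, 462, 383 and 333 in Control replicates 1 to 5. The lowest FoxP1iSkmTg mouse, at 493, was above the highest Control mouse, at 462. The means of 552 ± 39.0 and 409.7 ± 51.8 (SD, n = 5 each) differed 1.37-fold, with a log2 fold change of 0.46 ± 0.09 (SE, adjusted p = 0.00928, edgeR quasi-likelihood test).

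Plin3 (ENSMUSG00000024197, chr17:56277476-56292873, reverse strand) encodes perilipin 3, or TIP47, which is soluble in the cytosol and moves to nascent droplets. Its levels were 1247, 1177, 1337, 1151 and 1035 normalized counts in FoxP1iSkmTg replicates 1 to 5 and 715, 819.6, 805, 745 and 762 in Control replicates 1 to 5. The gap between the groups, from 819.6 to 1035, was wider than the whole range of the Control mice. The means of 1189 ± 112 and 769 ± 42.9 (SD, n = 5 each) differed 1.57-fold, with a log2 fold change of 0.65 ± 0.07 (SE, adjusted p = 0.000272, edgeR quasi-likelihood test). Fabp3, Plin2 and Plin3 passed the threshold in all 17 alternative analyses, with log2 fold changes of 0.90 to 1.24, 0.38 to 0.50 and 0.58 to 0.70.

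Dgat1, a gene of the last step of triglyceride synthesis, and Abhd5, the gene of a co-activator of its breakdown, lay slightly below Control without passing. Dgat1 (ENSMUSG00000022555, chr15:76502015-76511953, reverse strand), which encodes a diacylglycerol acyltransferase of the endoplasmic reticulum, stood at 132, 144, 140.1, 127 and 146 normalized counts in FoxP1iSkmTg replicates 1 to 5. Control replicates 1 to 5 stood at 175, 171, 144, 156 and 178. FoxP1iSkmTg replicate 5 lay above Control replicate 3, and the other 4 FoxP1iSkmTg mice lay below every Control mouse. The means were 138 ± 8.05 and 165 ± 14.1 (SD, n = 5 each), with a log2 fold change of -0.23 ± 0.09 (SE, adjusted p = 0.189, edgeR quasi-likelihood test).

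Abhd5 (ENSMUSG00000032540, chr9:122351608-122381524, forward strand), the gene of the lipase co-activator, stood at 452, 492, 496, 539.8 and 548 normalized counts in FoxP1iSkmTg replicates 1 to 5. Control replicates 1 to 5 stood at 575, 578, 585, 570.1 and 608, and the groups did not overlap. The means were 505 ± 39.2 and 583 ± 15.05 (SD, n = 5 each), with a log2 fold change of -0.18 ± 0.07 (SE, adjusted p = 0.137, edgeR quasi-likelihood test). Non-overlap was common in this table, where 42.2% of all tested genes had it (19.9% higher and 22.4% lower), and 3 of the 6 genes, Plin2, Plin3 and Abhd5, did. An antisense gene that is not listed, A730085K08Rik, shares 950 bases with Abhd5, so its count is uncertain to that extent. Neither Dgat1 nor Abhd5 passed in any of 17 alternative analyses, where the adjusted p ran from 0.0937 to 0.387 for Dgat1 and from 0.0731 to 0.319 for Abhd5.

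**Figure D2:**
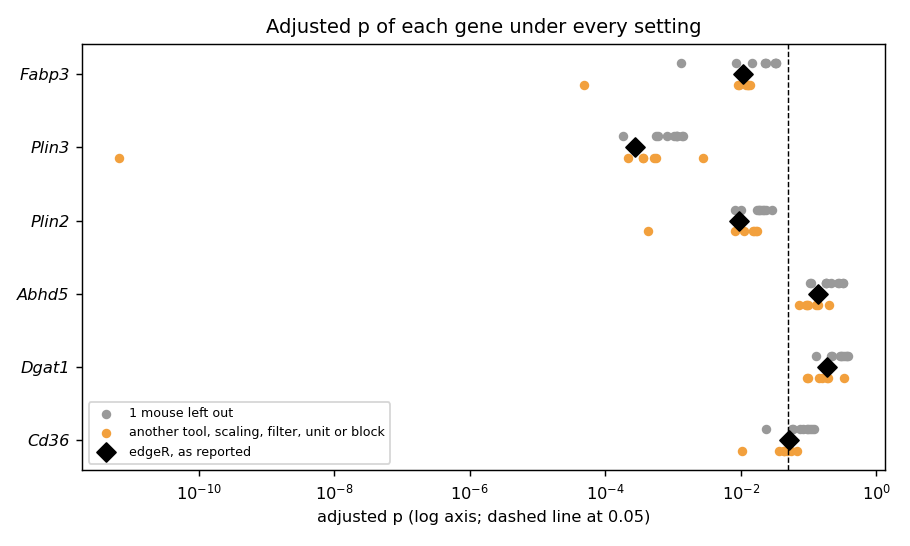
Adjusted p of each of the 6 genes, on a log axis, as reported (diamond), with 1 mouse left out (grey) and in the other alternatives (orange), 17 in all, with the threshold of 0.05 drawn as a line. Fabp3, Plin2 and Plin3 lie past the threshold in every analysis, Dgat1 and Abhd5 in none, and Cd36 in 6 of the 17 alternatives.

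To ask whether the genes changed by different amounts, the log2 ratio of each pair was taken within each mouse, where scaling between libraries cancels, and its group difference was tested by an exact permutation test (two-sided, Benjamini-Hochberg over 15 pairs). A pair passed in 9 of 15 cases, each joining Fabp3, Plin2 or Plin3 with Cd36, Dgat1 or Abhd5. In these 9 the groups did not overlap, and each had p = 0.007937, the smallest that 5 against 5 mice allow in an exact permutation test, and an adjusted p of 0.0132. The direction of these pairs follows from genes already selected as differing in opposite directions, so they describe the size of the divergence and add no separate support for it.

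The largest difference among the 15 pairs was that of Cd36 and Fabp3, where Cd36 by itself did not pass. The log2 ratio of Cd36 to Fabp3 was -0.79 ± 0.30 in FoxP1iSkmTg and 0.58 ± 0.37 in Control mice (SD, n = 5 each), a difference of -1.38. Fabp3 also moved against Dgat1 by 1.27 and against Abhd5 by 1.23. Plin3 moved against Abhd5 by 0.83 and Plin2 by 0.65, where Abhd5 by itself did not pass. Plin2 and Plin3 were each higher and Abhd5 lower without overlap, so the non-overlap of these ratios and their p followed from that. Dgat1 moved by -0.88 against Plin3 and -0.69 against Plin2, and Cd36 by -0.98 against Plin3 and -0.80 against Plin2.

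Within the higher genes the pairs did not pass, and the differences were 0.58 for Fabp3 against Plin2 (exact permutation adjusted p = 0.13), 0.39 for Fabp3 against Plin3 (0.192) and -0.19 for Plin2 against Plin3 (0.13). Without Control replicate 5, the mouse with the highest Fabp3 and the lowest Plin2 of its group, Fabp3 against Plin2 was 0.82 (exact permutation adjusted p = 0.0238) and Plin2 against Plin3 was -0.26 (0.0433), and both passed. Each passed in only that 1 of 11 alternative analyses, with adjusted p up to 0.238 in the others by the exact permutation test. Among Cd36, Dgat1 and Abhd5 the differences were -0.15 to -0.05 with adjusted p of 0.169 to 0.564 by the same exact permutation test.

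**Figure D3:**
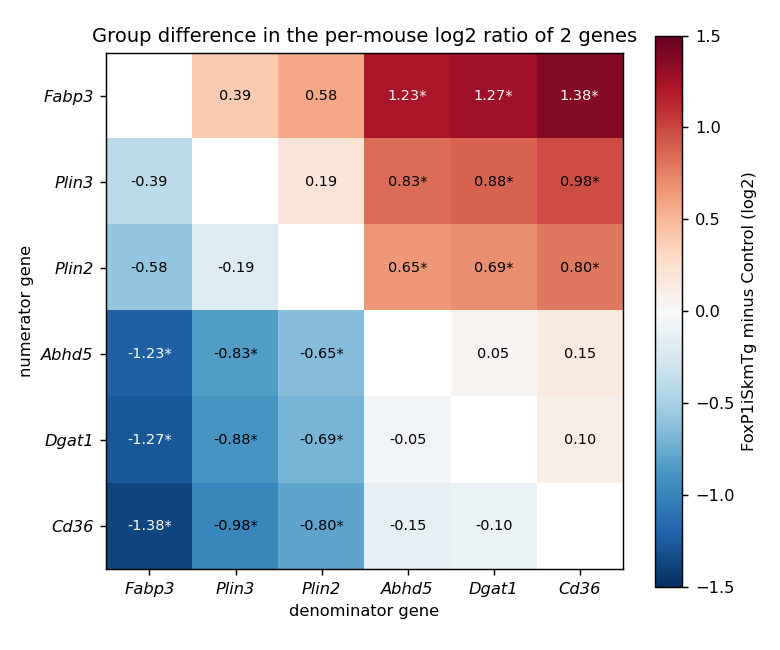
Difference between FoxP1iSkmTg and Control mice in the mean log2 ratio of each pair of genes (row gene over column gene, 5 mice per group), with colour and printed value giving the same number and asterisks at an adjusted p under 0.05 by the exact permutation test. The 9 pairs that join Fabp3, Plin2 or Plin3 with Cd36, Dgat1 or Abhd5 have sizes of 0.65 to 1.38, and the other 6 pairs of 0.05 to 0.58.

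Levels between genes were compared per length, as FPKM. Fabp3 was the most abundant at 499 ± 118 FPKM in FoxP1iSkmTg and 250.3 ± 81.3 FPKM in Control muscle (SD, n = 5 each). Cd36 followed at 64.8 ± 5.84 and 83.4 ± 10.9 FPKM. The perilipins came next, Plin3 at 17.8 ± 1.67 and 11.5 ± 0.634 FPKM and Plin2 at 8.88 ± 0.634 and 6.60 ± 0.831 FPKM.

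Abhd5 stood at 4.80 ± 0.371 FPKM in FoxP1iSkmTg and 5.54 ± 0.142 FPKM in Control muscle, and Dgat1 was lowest at 2.55 ± 0.150 and 3.05 ± 0.260 FPKM. The order of the means was the same in both groups. Each neighbour in it held in 5 of 5 mice of a group, except that Plin2 was above Abhd5 in 4 of 5 Control mice, so these 2 genes were not separated there. The FPKM ratio of Fabp3 to Cd36 was 7.69 ± 1.53 in FoxP1iSkmTg mice, from 5.50 to 9.38, and 2.99 ± 0.750 in Control mice, from 2.07 to 3.91. The ratio of Plin3 to Plin2 was 2.002 ± 0.173 in FoxP1iSkmTg and 1.76 ± 0.222 in Control mice.

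The surrounding pathway was read from 6 lists of 90 genes, of which 32 were listed in the table and 30 could be tested, the 6 genes above among them. By edgeR 10 were higher, 7 lower and 13 did not pass, in a table where 22.2% of all tested genes were higher and 18.2% lower, with a median log2 fold change of 0.24 beside 0.16 over all tested genes. The other 58 genes were not analysed here. In the paragraphs on these lists, adjusted p-values are from the edgeR quasi-likelihood test and values are normalized counts.

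In fatty acid uptake and binding, 5 of 15 genes were tested. Of these 2 were higher, where 22.2% of all tested genes were, 2 lower, where 18.2% were, and Cd36 did not pass. Vldlr, whose product binds triglyceride-rich lipoproteins at the cell surface, stood at 2940, 2799, 2799, 2876 and 2235 normalized counts in FoxP1iSkmTg replicates 1 to 5. In Control replicates 1 to 5 it stood at 4278, 4542, 4380, 5020.4 and 4802. The groups lay far apart, 1.66-fold lower in FoxP1iSkmTg mice (log2 fold change -0.73 ± 0.08 SE, adjusted p = 0.000247). Cav3, which encodes the muscle caveolin, was 1.38-fold lower (adjusted p = 0.0219). Got2, a mitochondrial aminotransferase gene whose product is also reported to bind fatty acids at the plasma membrane, was 1.26-fold higher (adjusted p = 0.0261).

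In triglyceride synthesis, 3 of 17 genes were tested, with 1 higher and 0 lower (1 lower at an unadjusted p under 0.05, 0 by DESeq2). The shares over all tested genes were 22.2% higher and 18.2% lower. Agpat3, an acylglycerol phosphate acyltransferase gene, ran from 2641 to 3350 (median 2814) normalized counts in FoxP1iSkmTg and from 2118 to 2548 (median 2189) in Control mice, without overlap. It was 1.31-fold higher (adjusted p = 0.00929). Lpin1, which encodes a phosphatidate phosphatase that is also a transcriptional co-activator, differed by 0.25 on the log2 scale without passing (adjusted p = 0.144). Mogat2, a monoacylglycerol acyltransferase gene, was too low to test, at 0 to 2.4 normalized counts in FoxP1iSkmTg and 2.2 to 19 in Control mice.

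In the lipid droplet coat and biogenesis list, 7 of 20 genes were tested, with 4 higher and 0 lower (2 lower at an unadjusted p under 0.05, 1 by DESeq2). Over all tested genes 22.2% were higher and 18.2% lower, so in a list of this size the counts do not set it apart from the other listed genes. Beside the perilipins, Bscl2, which encodes seipin at the contact of endoplasmic reticulum and nascent droplets, was 1.35-fold higher (adjusted p = 0.0218). Vps13c, which encodes a lipid transfer protein, was 1.17-fold higher (adjusted p = 0.0283). Pcyt1a, which encodes the rate-limiting enzyme of phosphatidylcholine synthesis, had a log2 fold change of -0.44 without overlap between the groups (adjusted p = 0.0875), and Fitm1, which encodes a fat storage-inducing membrane protein of muscle, one of -0.16 (adjusted p = 0.24). Plin1, the perilipin gene typical of adipocytes, had a log2 fold change of 0.997 ± 0.427 (SE, adjusted p = 0.224), with 16 to 62 normalized counts in FoxP1iSkmTg and 8.8 to 26 in Control mice. Cidea, which encodes a droplet fusion protein of brown and other adipocytes, was too low to test, at 6.4 to 32 and 0 to 4.2 normalized counts.

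FoxP1iSkmTg replicate 1 was the highest of its group for both adipocyte-typical genes, Plin1 at 62 and Cidea at 32 normalized counts. Cidea, too low to test, was higher in every FoxP1iSkmTg mouse than in any Control mouse, and Plin1 was in 3 of 5. The other listed adipocyte marker, Car3, which muscle fibres also express, was 2.56-fold lower (adjusted p = 0.00147). The summed level of Plin1 and Car3 was 16599 to 38312 normalized counts in FoxP1iSkmTg and 55476 to 82002 in Control mice, nearly all of it Car3. Without replicate 1 the log2 fold change was 0.42 for Plin2, 0.63 for Plin3 and 1.08 for Fabp3, all past the threshold. That of Plin1 was then 0.62 (adjusted p = 0.717). Leaving out 1 mouse is no test of adipocytes between fibres, and their part in any of these levels was not tested.

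In lipolysis and its regulators, 3 of 10 genes were tested, with 0 higher (0 at an unadjusted p under 0.05 and 0 by DESeq2) and 1 lower. With 22.2% of all tested genes higher and 18.2% lower, counts in 3 genes do not set this list apart. Ces1d, a carboxylesterase gene whose product hydrolyses triglyceride, stood at 119.5, 338, 200.9, 587 and 671 normalized counts in FoxP1iSkmTg replicates 1 to 5. Control replicates 1 to 5 stood at 833, 1001, 1019, 837 and 1083, so the groups did not overlap although the FoxP1iSkmTg mice were widely spread. It was 2.45-fold lower (log2 fold change -1.29 ± 0.36 SE, adjusted p = 0.0496). Pnpla3, which encodes a droplet-bound relative of adipose triglyceride lipase, differed by -0.24 on the log2 scale without passing (adjusted p = 0.201).

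**Figure D4:**
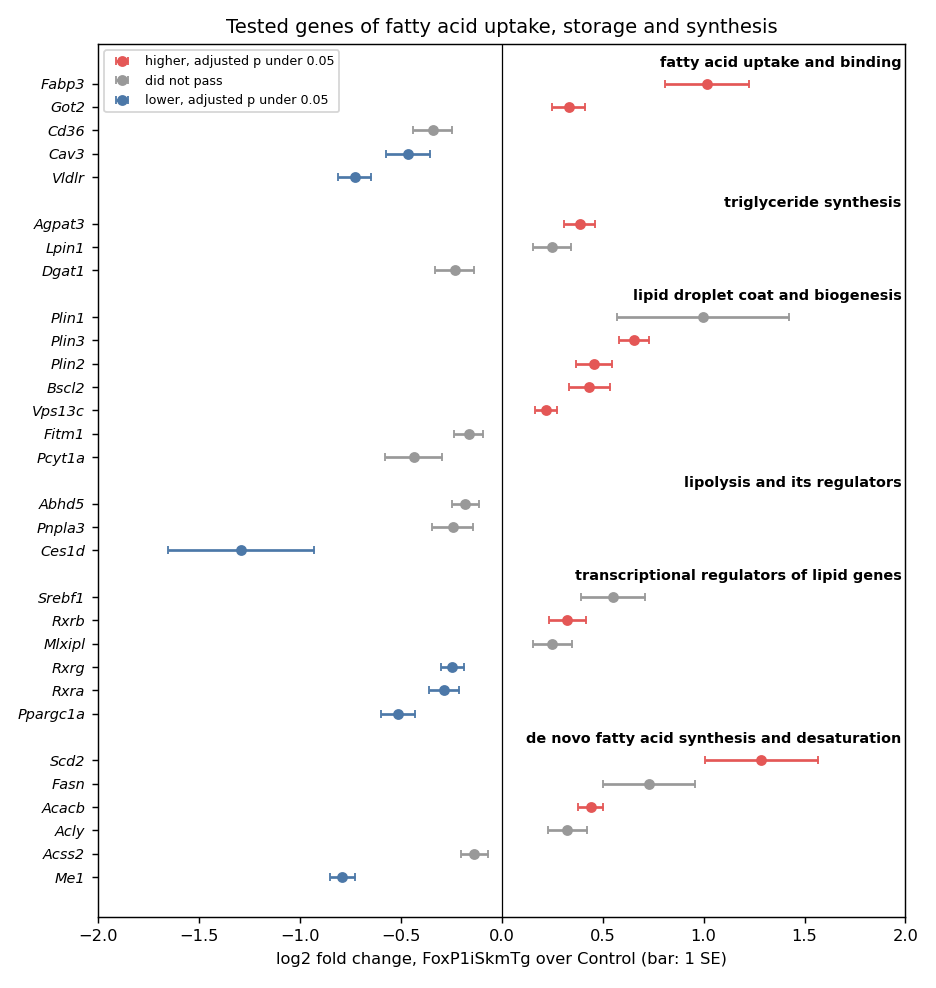
Log2 fold change of FoxP1iSkmTg over Control with 1 SE for the 30 tested genes of the 6 lists, in red where higher and blue where lower at an adjusted p under 0.05 and in grey otherwise. The droplet list holds 4 higher and 0 lower genes, the uptake list 2 of each, triglyceride synthesis 1 higher, lipolysis 1 lower, the regulators 1 higher and 3 lower, and fatty acid synthesis 2 higher and 1 lower, where 22.2% of all tested genes were higher and 18.2% lower.

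Among transcriptional regulators of lipid genes, 6 of 16 were tested, with 1 higher and 3 lower, beside 22.2% and 18.2% of all tested genes. Ppargc1a, which encodes the co-activator PGC-1alpha of mitochondrial and oxidative genes, stood at 503, 573, 487, 605 and 459 normalized counts in FoxP1iSkmTg replicates 1 to 5 and at 809.6, 784, 735, 818 and 676 in Control replicates 1 to 5. It was 1.43-fold lower without overlap (adjusted p = 0.00338). The retinoid X receptors, which pair with PPARs on DNA, went both ways, with Rxra 1.22-fold lower (adjusted p = 0.0341), Rxrg 1.18-fold lower (0.0188) and Rxrb 1.25-fold higher (0.0479). Srebf1, the gene of a sterol-responsive activator of fatty acid synthesis, had a log2 fold change of 0.55 without overlap (adjusted p = 0.0537), and Mlxipl, which encodes the carbohydrate-responsive factor ChREBP, one of 0.25 (0.16).

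In fatty acid synthesis and desaturation, 6 of 12 genes were tested, with 2 higher and 1 lower (22.2% and 18.2% of all tested genes). Scd2, a stearoyl-CoA desaturase gene, stood at 1984, 1020.2, 1031, 648 and 794 normalized counts in FoxP1iSkmTg replicates 1 to 5 and at 589, 517, 492, 394 and 304 in Control replicates 1 to 5. It was 2.44-fold higher without overlap (adjusted p = 0.0143), and without FoxP1iSkmTg replicate 1 its log2 fold change was 0.95 (adjusted p = 0.0111) in place of 1.29. Acacb, which encodes the acetyl-CoA carboxylase of the mitochondrial surface, was 1.36-fold higher (adjusted p = 0.00136), and Me1, the NADPH-producing malic enzyme gene, was 1.73-fold lower (2.7e-05). Fasn, the fatty acid synthase gene, differed by 0.73 on the log2 scale (adjusted p = 0.075), Acly, the ATP citrate lyase gene, by 0.32 (0.0608) and Acss2, a cytosolic acetyl-CoA synthetase gene, by -0.14 (0.358), and none of them passed.

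Several calls of these lists were lost when a single mouse was left out, and some in other alternative analyses. Vldlr, Agpat3, Ppargc1a, Acacb, Scd2 and Me1 passed in all 17 alternative analyses. Of the 17, Rxrg passed in 15, Cav3 in 14, Bscl2 in 12, Rxra in 10, Ces1d in 9, Got2 in 8, Vps13c in 7 and Rxrb in 4. Among genes that did not pass as reported, Srebf1 passed in 4, Pcyt1a in 3, Acly in 2 and Fasn in 1. Got2 did not pass without FoxP1iSkmTg replicate 1 or 3 or Control replicate 2, 3, 4 or 5 (adjusted p = 0.0524 to 0.0713), and Vps13c without FoxP1iSkmTg replicate 2, 3 or 4 or Control replicate 1, 2 or 5 (0.0544 to 0.0818). Bscl2 did not pass without FoxP1iSkmTg replicate 1 or Control replicate 2, 4 or 5 (0.0505 to 0.0612), and Cav3 without FoxP1iSkmTg replicate 2 or Control replicate 1 or 2 (0.0528 to 0.0596). Ces1d did not pass without FoxP1iSkmTg replicate 2 or 3 or any one Control mouse (0.079 to 0.104). Rxra did not pass without FoxP1iSkmTg replicate 1, 2 or 3 or Control replicate 1, 2, 4 or 5 (0.0526 to 0.0801), Rxrb without FoxP1iSkmTg replicate 1, 3 or 5 or any one Control mouse (0.0673 to 0.114) and Rxrg without FoxP1iSkmTg replicate 2 (0.0606). The reverse held for Acly without Control replicate 1 (0.0344), Srebf1 without Control replicate 3 (0.0441) and Pcyt1a without FoxP1iSkmTg replicate 4 (0.0463) or 5 (0.0414), which then passed.

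The 6 genes did not vary as one group among mice of the same genotype. After group means were removed, the log2 normalized counts of Plin2 and Plin3 correlated at a Pearson r of 0.38 over the 10 mice, Fabp3 and Dgat1 at 0.79, and Cd36 and Plin2 at -0.61. These are descriptions over mice that share their libraries' depth and scaling. Fabp3 against Plin2 had r = 0.58 over all mice and -0.42 once group means were removed, and Fabp3 against Cd36 had -0.48 and 0.46.

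The genes whose pattern over the 10 mice was most like each of the 6 were sought among 2506 tested genes with a mean of at least 100 normalized counts, by Pearson r of log2 normalized counts. For Fabp3 these were Acadl, which encodes long-chain acyl-CoA dehydrogenase of fatty acid oxidation (r = 0.978, and 0.935 within groups), Camta1 (0.966, and 0.891) and Ogfr (0.957, and 0.867). For Cd36 they were Slf1 (0.952, and 0.874 within groups), Plekhb1 (0.950, and 0.937) and Usp34 (0.914, and 0.768). For Plin2 they were Ddah1 (0.976, and 0.916 within groups), Chd4 (0.968, and 0.907) and Tmc7 (0.960, and 0.863).

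For Plin3 Arhgef17 (r = 0.973, and 0.759 within groups) and Ccne2 (0.969, and 0.707) were among the closest, and for Dgat1 the closest were Tmem134 (0.964, and 0.908 within groups), Tmem147 (0.936, and 0.819) and Sucla2 (0.932, and 0.799). For Abhd5 they were Capzb, of the actin capping protein (r = 0.979, and 0.937 within groups), the lipolytic carboxylesterase gene Ces1d (0.974, and 0.940 within groups) and Rpa1 (0.970, and 0.928). Genes with r over 0.9 numbered 115 for Plin3, 104 for Abhd5, 65 for Plin2, 35 for Fabp3, 17 for Dgat1 and 4 for Cd36. Because the table holds genes selected for a group difference, high values over both groups are common in it.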

How the data were processed

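Poly-A RNA of the tibialis anterior was sequenced from 5 FoxP1iSkmTg and 5 Control mice. The submitters' processing notes name HISAT2 2.0.5, DESeq2 1.20.0 and mm10, whereas the study's methods name STAR and HTSeq, so the aligner is not settled. The authors deposited read counts per gene, a normalized signal (counts divided by DESeq2 size factors), FPKM values and gene lengths. They also deposited log2 fold changes, p-values and adjusted p-values of their own comparison, which were used here only to find how the table was selected: 3480 genes with unadjusted p up to 0.04998, from 15846 adjusted genes, with 151 listed genes outside that adjustment.

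The main test was the two-sided quasi-likelihood test of edgeR 4.0.16 (glmQLFit and glmQLFTest, R 4.3.3) on counts, with TMM factors on library totals recovered from FPKM (15510420 to 21989419, which may be scaled values, so depth is not settled) and filterByExpr (minimum count 10). TMM factors and dispersions were estimated from the 3115 tested genes alone, all of them selected on the contrast. Whether that selection biased the scaling was not tested. With the authors' size factors in place of TMM, log2 fold changes shifted by a median of -0.026. P-values were Benjamini-Hochberg adjusted over 15846 genes. The fold changes quoted come from this fit, and means and SD from the deposited normalized counts. Per-mouse log2 ratios were tested by exact permutation (scipy 1.17.1). The SE is the log2 fold change divided by the square root of F. Alternatives were DESeq2 1.42.0, the authors' size factors, no filter, a filter at a mean of 50 normalized counts, limma 3.58.1 on log2(FPKM + 0.1) and log2(FPKM + 1), a replicate block, and each mouse left out, 17 in all. The code was tested on simulated data.

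Named are the 6 genes, Foxp1, Esr1, all tested genes of the 6 pathway lists and the 3 genes most like each of the 6, except that a gene meeting the last rule is not reported here. Mogat2, Cidea and Car3 were named beside them, as were Fabp3-ps1, after its values were seen, and the overlapping genes Gm10570, Zcchc17 and A730085K08Rik, without values. The genes, lists and rules were chosen with earlier results of these data known. Promoter windows were from RefSeq, and gene coordinates were the deposited ones, equal to those of GENCODE for the 6 genes.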

Additional observations from a re-analysis of the deposited data

Results flagged for a closer look

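Of 64 groups of 5 values for Foxp1, Esr1 and the 30 tested genes of the 6 lists, 5 had a single outlying mouse, a number to set beside the 3.2 that chance alone would give, and none was for one of the 6 genes. In FoxP1iSkmTg mice, replicate 1 was flagged as above the others for Fasn at 632 normalized counts (next highest 368), Scd2 at 1984 (1031) and Acly at 407 (367), and replicate 5 as below them for Vldlr at 2235 (next lowest 2799). In Control mice, replicate 5 was flagged as below the others for Acacb at 7051 normalized counts (next lowest 7598). The rule sets the gap against the range of the group, so for Acly and Acacb, with narrow ranges, it flagged a small difference in level. Without FoxP1iSkmTg replicate 1 the log2 fold change of Fasn was 0.50 (adjusted p = 0.149, edgeR), that of Acly 0.28 (0.141) and that of Srebf1 0.46 (0.126). Control replicate 5 stood apart for Fabp3 as well, but its gap to the next mouse was 0.69 of the range, just short of the limit of 0.71.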

How the results depend on the processing

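The 3 genes higher as reported, Fabp3, Plin2 and Plin3, passed in all 17 alternatives, and no gene of the 6 changed direction. The count of lower genes among the 6 was 0 as reported and 1, Cd36, by DESeq2, with the authors' size factors, with no filter and by limma on FPKM with either pseudocount, and 0 to 1 when each mouse was omitted in turn. In those settings Cd36 differed by -0.36 on the log2 scale (adjusted p = 0.0103), -0.36 (0.0361), -0.34 (0.0486), -0.36 (0.0434) and -0.36 (0.0437), and -0.41 to -0.27 with single mice left out. Genes of the 6 lists numbered 7 to 13 higher and 4 to 9 lower over all alternatives, and 7 to 10 and 4 to 8 when single mice were omitted. The lower count was 4 without FoxP1iSkmTg replicate 2 and without Control replicate 1, and 8 without FoxP1iSkmTg replicate 4 and without FoxP1iSkmTg replicate 5. All genes past the threshold numbered 883 to 1652 over all alternatives, 883 to 1299 with single mice left out. With the authors' size factors 544 were higher and 617 lower in place of 692 and 567, and log2 fold changes shifted by a median of -0.026. Pairs past the exact permutation test numbered 9, or 9 to 11 with single mice left out, and Dgat1 against Abhd5 turned to 0.0077 without FoxP1iSkmTg replicate 4 (-0.094 to 0.0077 over all single mice, none past the threshold). Other genes of the lists, Foxp1 and Esr1 lost 57 calls and gained 10 over all alternatives, with 0 reversed. The causes were not tested. The labels give no pairing of the mice beyond replicate numbers. Between the mice of a number, deviations from group means had r of -0.0176 to 0.0345, and 0 of 5 FoxP1iSkmTg mice had their highest r with that number. Whether mice of a number shared an origin was not tested. Under the replicate block 960 genes passed, 8 higher and 6 lower in the lists, and the log2 fold change was 1.04 for Fabp3, 0.46 for Plin2, 0.65 for Plin3 and -0.33 for Cd36. Genes not listed and changes in protein or lipid were not measured here.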
